A study of Saccharomyces cerevisiae with 20 samples.

Results

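Messenger RNA of 2 yeast double mutants that lost different tRNA modification enzymes, *elp3 tcd1* and *urm1 tcd1*, was compared. The comparison rests on 6 of the 20 messenger RNA libraries of the series, replicates 1 to 3 under each label. By their labels all strains derive from BY4741 and are *lys2*, the wild type (WT) among them. According to the study's methods, BY4741 is a MATa strain with *his3*, *leu2*, *met15* and *ura3* alleles. For the *tcd1* strains the study lists a loxP scar at *ELP3* or *URM1* and a KanMX4 cassette at *TCD1*. In *elp3 deg1* the study lists KanMX4 at *ELP3* and a SpHIS5 marker at *DEG1*. In *urm1 deg1* it lists KanMX4 at *URM1* and a loxP scar at *DEG1*. The study's strain list gives no *lys2* allele for these strains, and whether the sequenced strains are the listed ones is not stated. All cultures grew in minimal medium for 10 divisions and were harvested at an OD600 of 1.0. The 4 WT libraries are given as the level without these deletions, and the libraries of *elp3 deg1* and *urm1 deg1*, 4 each, serve to ask whether the difference between *elp3* and *urm1* depends on the second deletion. Replicate 4 of both *tcd1* labels was left out because its *ELP3* and *URM1* counts go against its label.

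Elongator, whose catalytic subunit is Elp3, starts the mcm5 side chain on the wobble uridine at position 34 of several tRNAs, and the ubiquitin-like protein Urm1 carries the sulfur that is put on the same uridine. Tcd1 closes the ring of the modified adenosine at position 37, next to the anticodon, into its cyclic form. The lysine tRNA that reads AAA carries all of these marks, and the glutamine and glutamate tRNAs with a wobble uridine carry the same wobble marks. Deg1 makes a pseudouridine at position 38 in the same loop. The 7 nuclear genes of this lysine tRNA in the reference genome share 1 mature sequence of 73 bases, shown because both compared deletions act on it. The anticodon and the adenosine at position 37 are in capitals, in DNA letters and without the intron:

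tRNA-Lys(UUU): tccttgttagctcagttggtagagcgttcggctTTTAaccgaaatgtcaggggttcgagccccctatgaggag

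Counts of the genes named in the labels come first. *ELP3* (YPL086C) had 3, 6 and 7 counts in *elp3 tcd1* replicates 1 to 3 and 333, 316 and 320 in *urm1 tcd1*, with 425 to 500 in WT. *URM1* (YIL008W) had 195, 202 and 227 counts in *elp3 tcd1* and 0, 1 and 0 in *urm1 tcd1*, with 87 to 121 in WT. These 6 libraries thus follow their labels for *ELP3* and *URM1*. *TCD1* (YHR003C) had 1, 0 and 2 counts in *urm1 tcd1*, as its label says. In *elp3 tcd1* it had 173, 147 and 185 counts, 40.6% of the WT level in counts scaled to library size (CPM). The reads of *TCD1* in *elp3 tcd1* go against that label in part, so a difference between the groups cannot be told apart from a difference in *TCD1*. Replicate 4 had, under the *elp3 tcd1* and the *urm1 tcd1* label in turn, 345 and 5 counts of *ELP3*, 0 and 174 of *URM1* and 0 and 154 of *TCD1*.

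**Figure D1:**
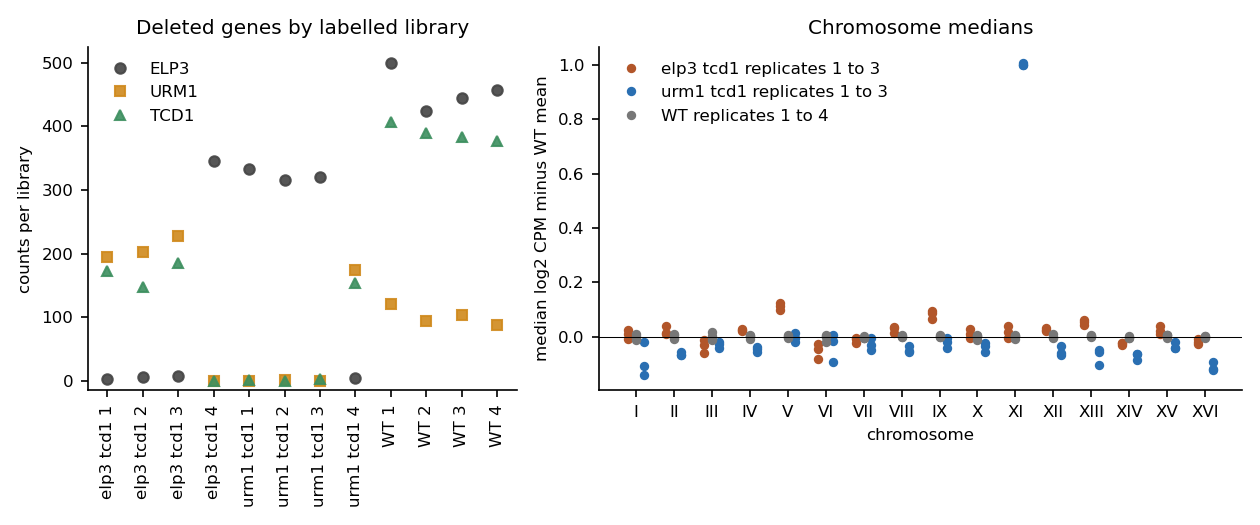
Left, counts of *ELP3*, *URM1* and *TCD1* in each library under the *elp3 tcd1*, *urm1 tcd1* and WT labels. Right, median log2 CPM of the genes of each nuclear chromosome minus the WT mean, 1 point per library. Replicate 4 of both *tcd1* labels carries the pattern of the other label, and chromosome XI stands at 1.00 to 1.01 in *urm1 tcd1* replicates 1 to 3.

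The 6 libraries held between 3302415 and 3798807 counted reads, so that 3 counts, the smallest level told from none, correspond to 0.790 to 0.908 CPM. This floor covers counting error only, since PCR copies cannot be told from separate molecules without molecular identifiers. Replicates varied with a biological coefficient of variation of 0.0300. The median of the 323 tested genes of chromosome XI lay 1.00, 1.01 and 1.00 above the WT mean on the log2 scale in the 3 *urm1 tcd1* libraries and between 0.00 and 0.04 from it in the 3 *elp3 tcd1* libraries. Every other nuclear chromosome stayed within 0.14 of WT in all 6. Genes of chromosome XI are therefore counted apart. The a-factor gene *MFA1* and the receptor gene *STE2*, expressed in MATa cells, had counts in every library. *LEU2*, *MET17* (the *met15* locus), *URA3* and *MATALPHA1* had 0 counts. The alpha-cell genes *STE3* and *MF(ALPHA)1* had counts as well. In *elp3 tcd1* these were 58 to 65 and 17 to 28, above the 21 to 38 and 1 to 6 of WT. *HIS3* had 1398 to 1820 counts per library under these labels and in WT, and the *his3* allele of BY4741 removes only an internal part of the gene. *LYS2* had 72 to 102 counts in the 6 libraries and 28 to 44 in WT. The labels number the replicates without naming separate cultures, and p-values measure the spread between these libraries.

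**Figure D2:**
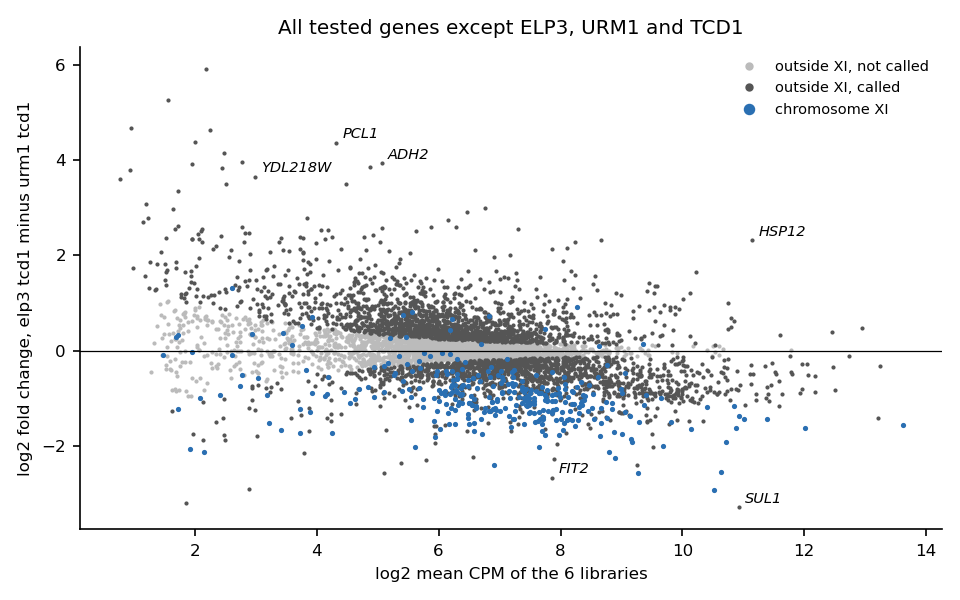
Log2 fold change of *elp3 tcd1* over *urm1 tcd1* against the log2 mean CPM of the 6 libraries, 1 point per tested gene, with the 3 deleted genes left out of the plot. Genes of chromosome XI lie about 1 below the others, and abundant genes lie lower than rare ones.

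Most transcripts differed between the mutants, usually by less than 2-fold. Of 5373 tested genes outside chromosome XI, 3200 (59.6%) passed an edgeR adjusted p of 0.01. *elp3 tcd1* had the higher level for 1775 of them (33%) and *urm1 tcd1* for 1425 (26.5%). Requiring in addition a difference of 1 or more on the log2 scale left 510 genes (9.49%), 377 (7.02%) and 133 (2.48%) by direction. Among the called genes, 82 were at least 4-fold higher in *elp3 tcd1* and 13 at least 4-fold higher in *urm1 tcd1*. Over all tested genes outside chromosome XI the median size of the difference was 0.32 on the log2 scale. The 3 and 3 libraries did not overlap for 2108 genes (39.2%) with *elp3 tcd1* higher and for 1673 (31.1%) with *urm1 tcd1* higher. The difference depended on the level. Tested genes outside chromosome XI were cut into 4 equal bins by mean CPM. In the lowest bin (1.70 to 42.3 CPM) 42.0% of the genes were higher in *elp3 tcd1* and 8.85% in *urm1 tcd1*, and in the highest bin (158 to 9658 CPM) it was 20% and 57.5%. The split also depended on the scaling. With upper quartile normalization, which shifted the median log2 fold change from 0.06 to 0.18, 2348 genes were higher in *elp3 tcd1* and 1068 in *urm1 tcd1*. With both replicate 4 libraries added under their labels, edgeR called 0 genes (164 at an unadjusted p under 0.05, 199 by DESeq2).

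Among genes with at least 50 counts in each library of the higher group, 12 are given for the largest differences towards *elp3 tcd1*. *PCL1* (YNL289W, chromosome XIV, 87897 to 88736), a G1 cyclin that partners the kinase Pho85, had 36.0, 38.6 and 39.7 CPM in *elp3 tcd1* and 1.66, 1.39 and 2.37 in *urm1 tcd1*, with 3.85 ± 0.85 (SD, n = 4) in WT. Its log2 fold change was 4.37 (standard error 0.23, edgeR adjusted p = 1.8e-26). The *elp3 tcd1* libraries thus lay far above both WT and *urm1 tcd1*. *ADH2* (YMR303C, chromosome XIII, 873291 to 874337), the glucose-repressed alcohol dehydrogenase that oxidizes ethanol, had 59.4, 63.6 and 65.7 CPM in *elp3 tcd1*, 4.65, 6.26 and 1.36 in *urm1 tcd1* and 46.2 ± 5.70 (SD, n = 4) in WT. Here the *urm1 tcd1* libraries stood apart from the other groups, and the log2 fold change was 3.93 (standard error 0.18, edgeR adjusted p = 3.1e-29). *GID10* (YGR066C), a substrate receptor of the GID ubiquitin ligase, had 50.8 to 57.7 CPM against 2.99 to 4.41. *TOS6* (YNL300W), a cell wall protein gene under the G1 regulator SBF, had 36.1 to 45.7 against 2.78 to 4.98. *DAK2* (dihydroxyacetone kinase) was 7.95-fold, *SOL4* (6-phosphogluconolactonase) 7.47-fold, *MLS1* (malate synthase of the glyoxylate cycle) 6.84-fold, *GRE1* (a stress-induced hydrophilin) 6.64-fold, *FMP16* 6.05-fold, *GND2* (the minor 6-phosphogluconate dehydrogenase) 6.02-fold and *SRL1* (a cell wall mannoprotein) 5.90-fold higher in *elp3 tcd1*. *YDL218W*, whose function is not known, had only 2 to 4 counts per library in *urm1 tcd1*, and its log2 fold change was 3.65 (standard error 0.32, edgeR adjusted p = 8.9e-16). Members of gene lists named in what follows beyond the largest of each list were chosen after their values were seen. These 12 genes were picked by size among called genes whose libraries do not overlap, so their separation is a description.

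**Figure D3:**
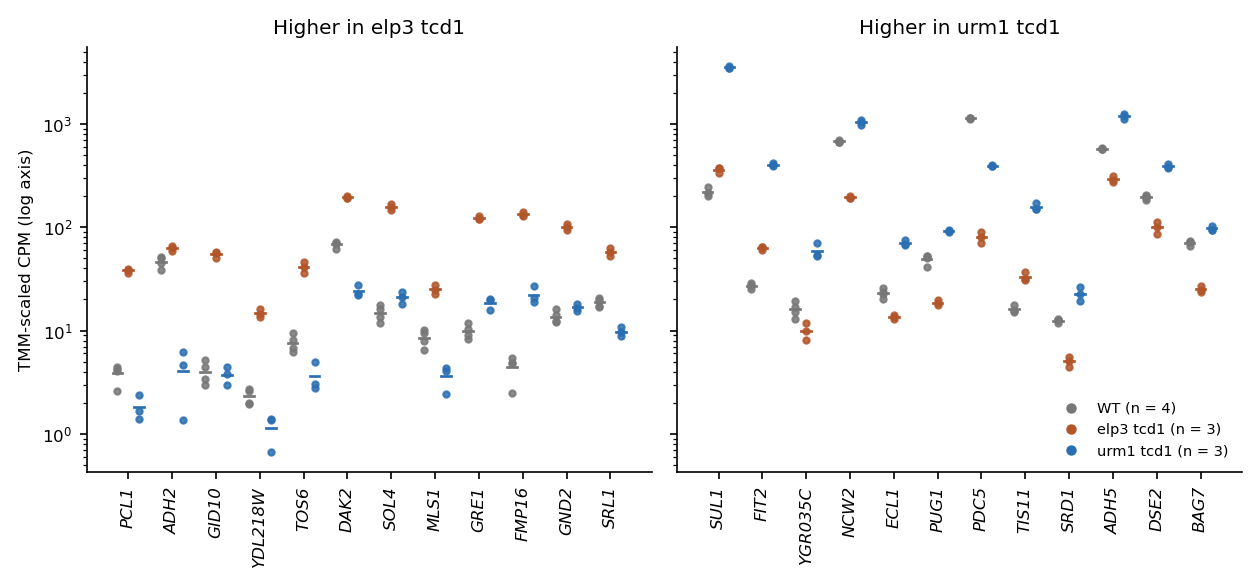
TMM-scaled CPM (log axis) of the 12 genes with the largest fold change in each direction, by the rule on counts and overlap, outside chromosome XI, 1 point per library and a bar at each group mean. On the left the WT mean lies below that of *elp3 tcd1* for all 12 genes. On the right it lies between the mutants for 8 genes, below both for *SUL1*, *FIT2* and *TIS11* and above both for *PDC5*.

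By the same rule 12 genes are given for the largest differences towards *urm1 tcd1*. *SUL1* (YBR294W, chromosome II, 789235 to 791814), a high-affinity sulfate permease, had 333, 375 and 373 CPM in *elp3 tcd1* and 3474, 3477 and 3603 in *urm1 tcd1*, with 217 ± 18.3 (SD, n = 4) in WT. It was 9.77-fold higher in *urm1 tcd1* (log2 fold change -3.29, standard error 0.04, edgeR adjusted p = 6.6e-59). *FIT2* (YOR382W, chromosome XV, 1059531 to 1059992), a cell wall protein that retains siderophore iron, had 64.0, 60.8 and 64.7 CPM against 394, 417 and 396, with 27.3 ± 1.70 (SD, n = 4) in WT. Both genes were above WT in both mutants, by more in *urm1 tcd1*. *NCW2*, a cell wall protein gene, had 192 to 201 CPM against 977 to 1078 and 677 ± 18.5 (SD, n = 4) in WT. *PDC5*, the minor pyruvate decarboxylase, had 70.0 to 90.3 against 388 to 398 and 1133 ± 11.1 (SD, n = 4) in WT, so it was below WT in both mutants. *ADH5*, an alcohol dehydrogenase, had 274 to 311 against 1123 to 1231, and *DSE2*, a daughter cell specific glucanase that helps cells part, had 86.8 to 113 against 374 to 410. The other 6 were *YGR035C* (5.97-fold), *ECL1* (5.14-fold), *PUG1* (a plasma membrane protoporphyrin transporter, 4.95-fold), *TIS11* (an mRNA decay factor of the iron response, 4.69-fold), *SRD1* (4.46-fold) and *BAG7* (3.85-fold).

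General stress genes and reserve carbohydrate genes were mostly higher in *elp3 tcd1*. Msn2 and Msn4 are the transcription factors that raise many of these genes when nutrients run low or conditions turn harsh. Of 44 tested members of a list of general stress genes outside chromosome XI, 37 were higher in *elp3 tcd1*, 4 (*SPI1*, *GRE3*, *TMA10* and *SDS23*) were higher in *urm1 tcd1* and 3 were not called, with a median log2 fold change of 0.87 beside 0.06 over all tested genes. *HSP12* (YFL014W, chromosome VI, 107256 to 107585), a small membrane-associated heat shock protein, had 3729, 3882 and 3696 CPM in *elp3 tcd1*, 723, 811 and 736 in *urm1 tcd1* and 38.6 ± 3.01 (SD, n = 4) in WT. All 6 mutant libraries thus lay above WT, and *elp3 tcd1* was 4.98-fold above *urm1 tcd1* (edgeR adjusted p = 4.3e-52). *HSP26*, a small chaperone, had a mean of 1394 CPM against 663. *TMA10* went the other way, with 166 against 343. The list's median lay 1.47 above WT in *elp3 tcd1* and 0.55 above it in *urm1 tcd1*, on the log2 scale. Leaving out 1 library at a time, 36 to 37 members were higher in *elp3 tcd1*, and with both replicate 4 libraries 0 were.

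Trehalose and glycogen are the storage sugars of yeast. All 8 trehalose genes tested outside chromosome XI were higher in *elp3 tcd1* (median log2 fold change 0.98). *PGM2*, the phosphoglucomutase that feeds both pathways, had 695, 669 and 668 CPM in *elp3 tcd1* and 130, 142 and 134 in *urm1 tcd1* (log2 fold change 2.32, edgeR adjusted p = 2.4e-46), with 102 ± 3.78 (SD, n = 4) in WT. *TPS1*, the trehalose phosphate synthase, had 1067 to 1098 CPM against 400 to 430 in *urm1 tcd1*, which lay at the WT level of 420 ± 20.5 (SD, n = 4). Of 13 glycogen genes outside chromosome XI 11 were higher in *elp3 tcd1* and 2 (*PCL8* and *PCL10*, cyclins that restrain glycogen synthase) were higher in *urm1 tcd1*, with a median of 1.02. *GLC3*, the branching enzyme, was 4.00-fold and *GPH1*, the phosphorylase that breaks glycogen down, 2.98-fold higher in *elp3 tcd1*, so genes of synthesis and of breakdown stood higher together. With upper quartile normalization the 2 exceptions were no longer called.

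A window of 300 bases that begins 400 bases before the start codon of *HSP12* is shown on the gene's strand for the matches it holds to AGGGG, the core of the stress response element that Msn2 and Msn4 recognize. The window is chrVI:106856-107155 of R64 (plus strand), and matches on either strand are in capitals:

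HSP12: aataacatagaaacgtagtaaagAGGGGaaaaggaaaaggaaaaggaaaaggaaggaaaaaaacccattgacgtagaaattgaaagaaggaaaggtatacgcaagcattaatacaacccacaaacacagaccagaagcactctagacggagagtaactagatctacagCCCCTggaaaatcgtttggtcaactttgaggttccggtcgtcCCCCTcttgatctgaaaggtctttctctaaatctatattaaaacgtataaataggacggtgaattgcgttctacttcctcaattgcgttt

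It holds 3 matches. Of the windows of general stress genes 78.3% (36 of 46) held AGGGG, against 24.1% of the windows of all tested genes. The share was 29.1% for genes outside chromosome XI that were higher in *elp3 tcd1*, 21.7% for those higher in *urm1 tcd1* and 21.5% for those not called. A match describes the letters of the window and is not a measured binding site. AGGGG and GATAAG were chosen with earlier results known, and the other motifs and all 5 printed windows after the values were seen.

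Genes of growth on carbon sources other than glucose were mostly higher in *elp3 tcd1*. These genes are repressed while glucose is plentiful. Of 20 tested genes of gluconeogenesis, the glyoxylate cycle and acetate use outside chromosome XI, 13 were higher in *elp3 tcd1*, 2 (*PYC1* and *PYC2*, the pyruvate carboxylases) were higher in *urm1 tcd1* and 5 were not called, with a median log2 fold change of 1.20. Against WT the list's median was -0.03 in *elp3 tcd1* and -0.85 in *urm1 tcd1*. *ICL1*, isocitrate lyase, had 226, 219 and 210 CPM in *elp3 tcd1*, 85.3, 92.6 and 77.3 in *urm1 tcd1* and a mean of 163 in WT. *ALD4*, the mitochondrial aldehyde dehydrogenase, had means of 437, 203 and 248 in the same order. Of 20 hexose transporter and sensor genes only 10 were tested. They split, with 5 (50%) higher in *elp3 tcd1* and 4 (40%) higher in *urm1 tcd1*, beside 33% and 26.5% of all tested genes. *HXT14* had the largest log2 fold change of the list, 4.62 (standard error 0.48), but did not meet the rule on counts and overlap. *HXT5*, a transporter of slow growth, had 475, 441 and 440 CPM against 98.2, 104 and 102 and only 14.5 ± 1.42 (SD, n = 4) in WT. *HXT1*, *HXT2* and *HXT3* were higher in *urm1 tcd1*, *HXT2* with 114 to 121 CPM against 219 to 229 and 1018 ± 115 (SD, n = 4) in WT. *HXT6* and *HXT7* are near-identical copies whose reads may be split between them.

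Glycolysis and fermentation genes showed the opposite. Of 24 tested outside chromosome XI, 20 were higher in *urm1 tcd1*, 4 (*HXK1*, *GLK1*, *GPM2* and *PYK2*) were higher in *elp3 tcd1* and 0 were not called, with a median of -0.57. With upper quartile normalization 15 were higher in *urm1 tcd1*. *PDC1*, the main pyruvate decarboxylase, had 5374, 4859 and 5158 CPM in *elp3 tcd1* and 13749, 14129.7 and 13421 in *urm1 tcd1*, which lay at the WT level of 13518 ± 477 (SD, n = 4). *HXK2*, the hexokinase that acts in glucose repression, had 286 to 301 against 676 to 765, both below the WT mean of 1359. *HXK1* and *GLK1*, the glucose kinases of the repressed set, had 541 against 431 and 1228 against 647 CPM on average. *PDC1* and *PDC5*, like the *TDH* genes, are similar copies that can share reads.

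Cyclins and other cell cycle genes were mostly higher in *elp3 tcd1*. G1 cyclins drive entry into the cycle and B-type cyclins drive mitosis. In a culture, a larger share of cells in a phase and more transcript per cell cannot be told apart. Of 18 tested G1 genes outside chromosome XI, 11 were higher in *elp3 tcd1*, 2 (*CLN3* and *PCL7*) were higher in *urm1 tcd1* and 5 were not called (median 0.57). *CLN1* had 31.4, 26.9 and 34.5 CPM against 3.65, 6.26 and 6.10, and *CLN2* 23.8, 24.6 and 26.5 against 5.97, 7.31 and 6.44. WT had 9.31 ± 1.58 and 29.9 ± 3.58 (SD, n = 4), so *CLN1* was above WT in *elp3 tcd1* while *CLN2* was below WT in *urm1 tcd1*. *CLN3*, the cyclin that starts the sequence, had means of 32.1 and 53.1 CPM. Of 21 B-type cyclins and mitotic regulators, 12 were higher in *elp3 tcd1*, 1 (*MCM1*) was higher in *urm1 tcd1* and 8 were not called (median 0.35). *CLB2*, the main mitotic cyclin, had 23.1, 19.3 and 23.2 CPM against 4.65, 4.87 and 6.44 and 4.75 ± 1.07 (SD, n = 4) in WT. *CTS1*, the chitinase that parts mother and daughter and a gene of no list here, was higher in *urm1 tcd1*, with 332, 315 and 349 CPM in *elp3 tcd1* and 1111, 1115 and 1150.0 in *urm1 tcd1*.

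Autophagy genes (37 tested) leaned towards *elp3 tcd1*, with 21 (56.8%) higher there, 6 (16.2%) higher in *urm1 tcd1* and 10 not called (median 0.37). All tested genes outside chromosome XI had 33% and 26.5% in these directions. The bin of lowest mean CPM had 42.0% and 8.85%, and the part of the level in this lean was not tested. *ATG40*, the receptor for autophagy of the endoplasmic reticulum, had 64.0, 51.0 and 58.5 CPM against 22.6, 19.5 and 24.1. *ATG41* had 608 to 628 against 1179 to 1286, both below the WT mean of 1622. *ATG8*, which builds the autophagosome membrane, was not called (log2 fold change -0.18). Anaerobic cell wall genes of the *DAN*, *TIR* and *PAU* families had 7 of 10 tested members higher in *elp3 tcd1*, 3 were not called and 0 were higher in *urm1 tcd1* (median 1.23). *TIR2* had 38.7, 34.4 and 33.7 CPM against 18.9, 16.7 and 10.2, and 52.7 ± 5.06 (SD, n = 4) in WT. The *PAU* and *COS* genes are multigene families whose reads may be split among near-identical copies.

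Sulfur genes were mostly higher in *urm1 tcd1*. They take up sulfate, reduce it and build methionine, cysteine and S-adenosylmethionine. These strains cannot build homocysteine from sulfide by Met17, whose gene had 0 counts in every library. Of 31 tested members outside chromosome XI, 27 were higher in *urm1 tcd1*, 0 in *elp3 tcd1* and 4 (*MET7*, *MET30*, *MET31* and *CBF1*) were not called, with a median log2 fold change of -0.89. With upper quartile normalization 2 passed the test towards *elp3 tcd1*. Against WT the list's median was -0.30 in *elp3 tcd1* and 0.31 in *urm1 tcd1*, and the groups stood on either side of WT. *MET3*, ATP sulfurylase, the first enzyme of sulfate activation, had 503, 524 and 527 CPM in *elp3 tcd1*, 1406, 1392 and 1439 in *urm1 tcd1* and 565 ± 23.3 (SD, n = 4) in WT. *CYS4*, cystathionine beta-synthase, had 563 to 601 against 1553 to 1667 and 720 ± 30.1 (SD, n = 4) in WT. *SAM1*, an S-adenosylmethionine synthetase, had 566, 567 and 570 in *elp3 tcd1* and 1128 to 1141 in *urm1 tcd1*, close to the 1078 ± 37.1 (SD, n = 4) of WT. So *SAM1* was below WT in *elp3 tcd1*, and *MET3* was above WT in *urm1 tcd1*.

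The window of *MET3* is shown because Cbf1, which acts with the sulfur gene activator Met4, recognizes CACGTG. It spans chrX:455839-456138 (R64, plus strand), placed as for *HSP12*, with matches in capitals:

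MET3: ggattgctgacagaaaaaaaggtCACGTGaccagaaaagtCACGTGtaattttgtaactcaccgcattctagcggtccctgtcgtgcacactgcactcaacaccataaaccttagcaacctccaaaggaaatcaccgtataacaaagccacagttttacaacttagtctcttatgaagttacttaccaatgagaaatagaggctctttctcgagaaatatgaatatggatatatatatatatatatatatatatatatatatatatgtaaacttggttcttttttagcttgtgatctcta

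It holds 2 matches. CACGTG was present in 57.6% of the windows of sulfur genes (19 of 33) against 4.55% of all windows. It was present in 6.13% of the windows of genes outside chromosome XI higher in *urm1 tcd1*, in 3.54% of those higher in *elp3 tcd1* and in 4.27% of those not called.

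Amino acid biosynthesis under Gcn4, the activator that answers amino acid shortage, was higher in *urm1 tcd1*. The list held 38 tested genes outside chromosome XI, of histidine, aromatic, branched-chain, serine, threonine, proline and asparagine synthesis, with *SHM2* and *GCN4* itself. Of these, 34 were higher in *urm1 tcd1*, 2 (*SER3* and *SHM2*) were higher in *elp3 tcd1* and 2 (*HIS6* and *ARO7*) were not called. The median was -0.52. *GCN4*, counted among the 34, had 1528, 1445 and 1476 CPM in *elp3 tcd1*, where WT had 1534 ± 25.4 (SD, n = 4). In *urm1 tcd1* it had 2450.5, 2513 and 2433 (1.66-fold, edgeR adjusted p = 1.2e-27). *HIS4*, a histidine enzyme, had 1889, 1892 and 1954 against 4318, 4299 and 4164. *SER33*, a phosphoglycerate dehydrogenase, had 373 to 396 against 960 to 981, while its paralog *SER3* had means of 445 and 265. Lysine synthesis had 7 of 10 genes higher in *urm1 tcd1* (median -0.43). All strains are labelled *lys2*, though *LYS2* had reads in these libraries and in WT, and whether the pathway is closed was not tested. *LYS12*, homoisocitrate dehydrogenase, had 323, 332 and 321 CPM against 521, 546 and 526. Arginine synthesis split, with 5 of 13 higher in *elp3 tcd1*, *ARG3* and *ARG4* among them, and 7 higher in *urm1 tcd1*, among them the mitochondrial ornithine carrier *ORT1* at 154 to 180 against 283 to 314 CPM.

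The window of *HIS4*, chrIII:68434-68733 (R64, read on the minus strand, the gene's own), is shown for its match to TGACTCA, the letters Gcn4 binds:

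HIS4: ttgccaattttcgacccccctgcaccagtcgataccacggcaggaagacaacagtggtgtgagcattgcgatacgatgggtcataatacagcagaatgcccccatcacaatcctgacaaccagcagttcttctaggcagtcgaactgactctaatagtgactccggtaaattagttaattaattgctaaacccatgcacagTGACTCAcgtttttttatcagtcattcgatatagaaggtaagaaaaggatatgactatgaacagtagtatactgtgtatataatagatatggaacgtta

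It holds 1 match. TGACTCA was present in 46.2% of the windows of the listed Gcn4 genes (18 of 39) and in 3.1% of all windows, in 6.06% of those of genes higher in *urm1 tcd1*, 2.17% of those higher in *elp3 tcd1* and 1.89% of those not called.

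More nitrogen genes were higher in *urm1 tcd1* than in *elp3 tcd1*. Good nitrogen sources keep these genes off through the GATA factors Gln3 and Gat1. Of 33 tested members outside chromosome XI, 20 were higher in *urm1 tcd1*, 5 (*DAL4*, *PUT2*, *UGA1*, *UGA2* and *AVT1*) were higher in *elp3 tcd1* and 8 were not called, with a median of -0.33. The list's median against WT was 0.53 in *elp3 tcd1* and 0.98 in *urm1 tcd1*. *MEP2* (YNL142W), the ammonium permease, had 306, 300 and 336 CPM in *elp3 tcd1*, 775, 799 and 715 in *urm1 tcd1* and 48.2 ± 5.47 (SD, n = 4) in WT (2.43-fold between the mutants, edgeR adjusted p = 1.3e-34). *CAR1*, arginase, had 174, 184 and 173 against 545, 559 and 522. *UGA2*, of 4-aminobutyrate breakdown, had means of 347 and 199. Among 10 nitrogen regulator genes outside chromosome XI, 2 (20%) were higher in *elp3 tcd1*, 3 (30%) in *urm1 tcd1* and 5 were not called. All tested genes had 33% and 26.5% in these directions. *GAT1* had 285, 286 and 297 CPM against 495, 499 and 471. Amino acid permease genes had 12 of 20 higher in *urm1 tcd1* and 5 higher in *elp3 tcd1*. *TAT1*, a permease of tyrosine and branched-chain amino acids, was the exception by size, with 55.0, 47.0 and 61.2 CPM against 12.3, 12.5 and 8.81.

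The window of *MEP2*, chrXIV:357053-357352 (R64, plus strand), is shown for its matches to GATAAG, the core that GATA factors bind:

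MEP2: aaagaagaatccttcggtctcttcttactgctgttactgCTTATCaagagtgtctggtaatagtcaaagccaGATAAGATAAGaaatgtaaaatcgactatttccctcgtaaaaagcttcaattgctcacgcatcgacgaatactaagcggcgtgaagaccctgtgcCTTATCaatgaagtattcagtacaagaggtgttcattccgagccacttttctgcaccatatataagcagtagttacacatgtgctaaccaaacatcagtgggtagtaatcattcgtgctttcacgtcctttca

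It holds 4 matches, of which 2 overlap by 1 base. GATAAG was present in 74.3% of the windows of nitrogen genes (26 of 35) and in 14% of all windows. Genes higher in *urm1 tcd1* held it in 15.0%, genes higher in *elp3 tcd1* in 13.5% and genes not called in 13.9% of their windows, so the groups were close to each other and to all windows.

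Iron genes were mostly higher in *urm1 tcd1*. Aft1 and Aft2 switch on uptake and release of iron when iron-sulfur cluster synthesis signals a shortage. Of 30 tested members outside chromosome XI, 22 were higher in *urm1 tcd1*, 4 (*FRE4*, *CCC1*, *VHT1* and *BIO5*) were higher in *elp3 tcd1* and 4 were not called, with a median of -0.55. *CCC1* encodes the importer that stores iron in the vacuole, *FRE4* a surface reductase, and *VHT1* and *BIO5* transporters of biotin and a biotin precursor. *FET3*, the multicopper oxidase of iron uptake, had 445, 459 and 457 CPM in *elp3 tcd1*, 1328, 1324 and 1291 in *urm1 tcd1* and 117 ± 10.2 (SD, n = 4) in WT. *FIT2*, described above, and *TIS11*, with 31.6, 31.1 and 36.7 against 149, 170 and 149 CPM, had the largest differences of the list outside chromosome XI. Against WT the list's median was 0.08 in *elp3 tcd1* and 0.74 in *urm1 tcd1*. With upper quartile normalization 18 members were higher in *urm1 tcd1* and 6 in *elp3 tcd1*.

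The window of *FIT2*, chrXV:1059131-1059430 (R64, plus strand), is shown for its matches to TGCACCC, the core of the element bound by Aft1 and Aft2:

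FIT2: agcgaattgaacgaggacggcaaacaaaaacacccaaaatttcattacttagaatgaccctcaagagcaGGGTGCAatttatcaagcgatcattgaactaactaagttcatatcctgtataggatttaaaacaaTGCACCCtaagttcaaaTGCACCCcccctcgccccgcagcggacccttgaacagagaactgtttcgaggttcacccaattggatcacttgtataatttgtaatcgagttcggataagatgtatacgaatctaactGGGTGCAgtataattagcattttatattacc

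It holds 4 matches. TGCACCC was present in 46.9% of the windows of iron genes (15 of 32) and in 1.47% of all windows. The shares were 2.14% among genes higher in *urm1 tcd1*, 1.09% among those higher in *elp3 tcd1* and 1.31% among those not called.

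Cytosolic ribosomal protein genes were nearly all higher in *urm1 tcd1*. Of 134 tested outside chromosome XI, 128 were higher in *urm1 tcd1*, 2 (*RPL9B* and *RPL22B*) were higher in *elp3 tcd1* and 4 were not called, with a median log2 fold change of -0.83. The direction and the count stayed near this under the other scalings, with 128 members higher in *urm1 tcd1* under upper quartile and 130 with TMM factors from genes outside chromosome XI. With the size threshold of 1 on the log2 scale, 14 were. The medians against WT were -0.07 in *elp3 tcd1* and 0.77 in *urm1 tcd1*. *RPL9A* had 315, 336 and 331 CPM in *elp3 tcd1*, 702, 736 and 720 in *urm1 tcd1* and 392 ± 14.3 (SD, n = 4) in WT. Many of these genes are pairs of similar copies, *RPL9A* and *RPL9B* among them, and the division of reads within a pair is uncertain. Genes of ribosome assembly did not follow, with 38 of 124 (30.6%) higher in *elp3 tcd1*, 20 (16.1%) higher in *urm1 tcd1* and 66 not called (median 0.04). All tested genes had 33% and 26.5% in these directions and a median of 0.06. The median and the share towards *elp3 tcd1* were thus near those of all tested genes. Mitochondrial ribosomal protein genes had 4 of 70 higher in *elp3 tcd1*, 15 higher in *urm1 tcd1* and 51 not called (median -0.11), shares that for *elp3 tcd1* lie under the 33% of all tested genes. Aminoacyl-tRNA synthetase genes had 20 of 32 (62.5%) higher in *urm1 tcd1* and 6 (18.8%) higher in *elp3 tcd1* (median -0.32). The 6 were the cytosolic glutaminyl-tRNA synthetase gene *GLN4* and the mitochondrial enzyme genes *MSD1*, *MSE1*, *MSW1*, *NAM2* and *DIA4*. All tested genes had 26.5% and 33% in these directions, and the bin of highest mean CPM had 57.5% and 20%. The part of the level in the synthetase counts was not tested.

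**Figure D4:**
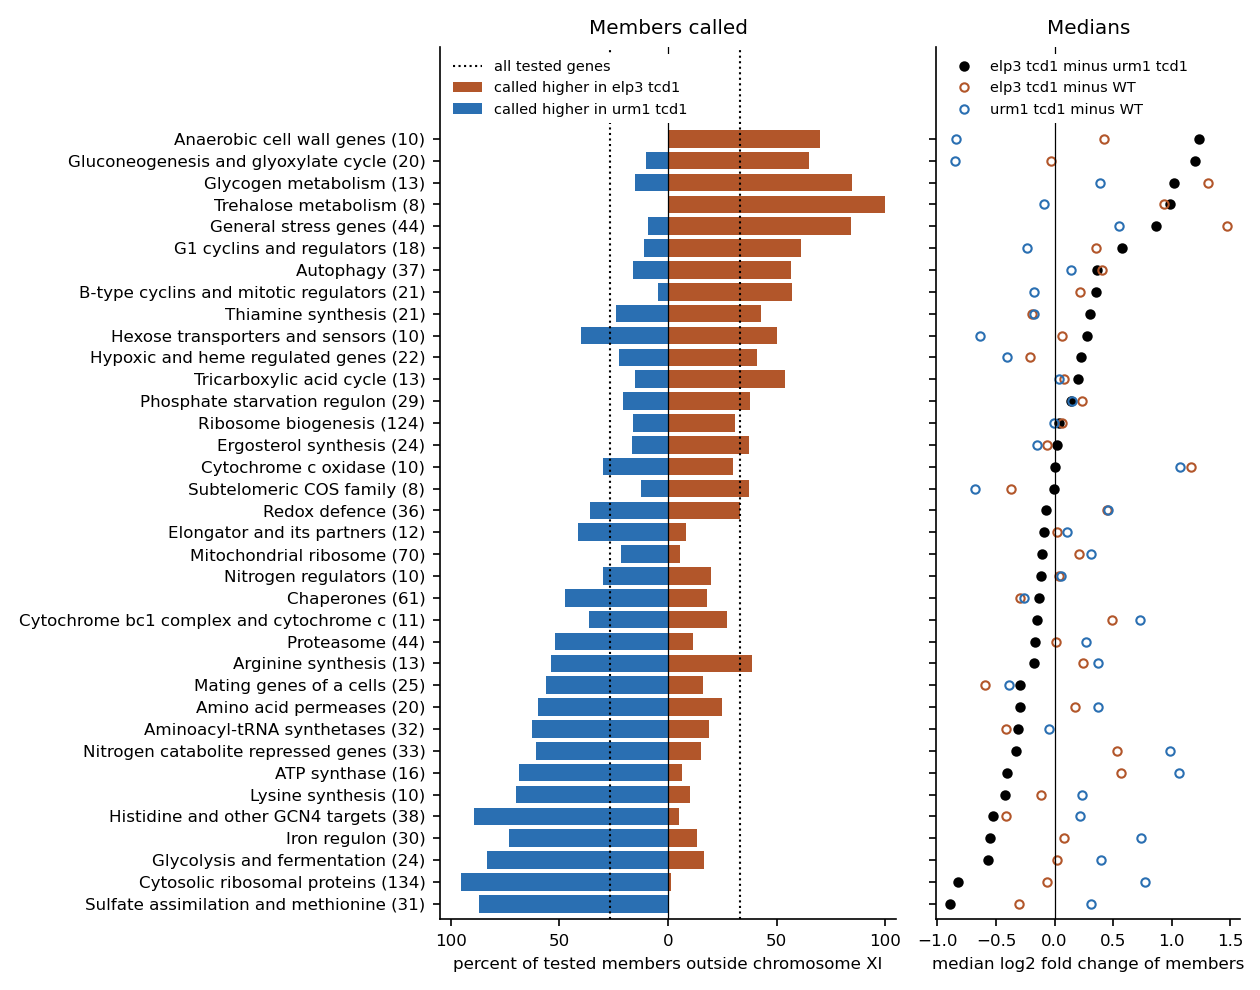
Left, percent of tested members outside chromosome XI called higher in *elp3 tcd1* (to the right) or in *urm1 tcd1* (to the left) for each list with at least 8 such members (number in brackets). Dotted lines mark all tested genes, 33% and 26.5%. Right, the list's median log2 fold change between the mutants and of each mutant against WT. Trehalose genes reach 8 of 8 on one side and cytosolic ribosomal protein genes 128 of 134 on the other.

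ATP synthase genes had 11 of 16 higher in *urm1 tcd1* and 1 higher in *elp3 tcd1* (median -0.41). That gene was *INH1*, the inhibitor of ATP hydrolysis by the enzyme, with 96.1, 104 and 106 CPM against 57.1, 57.1 and 54.6. *ATP15*, the epsilon subunit, had 79.8 to 88.8 against 127 to 143 CPM. Cytochrome c oxidase had 3 of 10 genes, 30%, in each direction (median 0.01), near the 33% and 26.5% of all tested genes, *COX26* with 39.7, 45.1 and 39.0 against 14.6, 14.3 and 13.6 CPM. The cytochrome bc1 complex with cytochrome c had 3 of 11 (27.3%) higher in *elp3 tcd1* and 4 (36.4%) higher in *urm1 tcd1* (median -0.15), and within it the cytochrome c isoforms went opposite ways. *CYC1*, the main isoform, had 25.5, 27.7 and 26.0 CPM in *elp3 tcd1* and 50.8, 55.7 and 46.4 in *urm1 tcd1*. *CYC7*, the isoform of low oxygen and stress, had 43.3, 44.5 and 49.2 and 16.9, 17.1 and 13.2. Of 13 genes of the tricarboxylic acid cycle outside chromosome XI, 7 were higher in *elp3 tcd1* and 2 in *urm1 tcd1* (median 0.20), and aconitase, *ACO1*, had 273, 267 and 267 CPM against 126, 125 and 118.

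More protein quality genes were higher in *urm1 tcd1* than in *elp3 tcd1*. Of 44 proteasome genes outside chromosome XI 23 were higher in *urm1 tcd1*, 5 were higher in *elp3 tcd1* and 16 were not called (median -0.17). The 5 included *IRC25*, *HSM3* and *RPN14*, which assist assembly of the particle. Of 61 chaperone genes 29 were higher in *urm1 tcd1*, 11 were higher in *elp3 tcd1* and 21 were not called (median -0.14). Towards *urm1 tcd1* the shares were 52.3% for proteasome and 47.5% for chaperone genes, beside 26.5% of all tested genes. In the bin of highest mean CPM described above that share was 57.5%, and the part of the level in these counts was not tested. *BTN2*, which sorts misfolded proteins into deposits, had 334, 303 and 309 CPM against 772, 833 and 800, both below the 1319 ± 25.6 (SD, n = 4) of WT. *SSB1* and *SSB2*, the Hsp70 chaperones at the ribosome, had log2 fold changes of -0.67 and -0.80. *HSP26*, given above, and *AHA1*, an activator of Hsp90, were among those higher in *elp3 tcd1*. Redox defence genes had 12 of 36 and 13 of 36 in the 2 directions (median -0.08), *GTT1*, a glutathione transferase, with 209, 199 and 196 CPM against 69.4, 73.8 and 64.1. Hypoxic and heme regulated genes had 9 of 22 higher in *elp3 tcd1* and 5 higher in *urm1 tcd1* (median 0.22), and ergosterol genes 9 and 4 of 24 (median 0.02). Phosphate genes had 11 and 6 of 29 (median 0.14), *PHO89*, a sodium-coupled phosphate transporter, with 13.7 to 18.5 against 51.8 to 56.0 CPM. Thiamine genes had 9 and 5 of 21 (median 0.30), although *THI4*, the thiazole synthase, was 3.22-fold higher in *urm1 tcd1*. The *COS* family had 3 and 1 of 8 (median -0.01). Over all tested genes outside chromosome XI the shares were 33% higher in *elp3 tcd1* and 26.5% higher in *urm1 tcd1*. Redox (33.3% and 36.1%), hypoxic (40.9% and 22.7%), ergosterol (37.5% and 16.7%), phosphate (37.9% and 20.7%) and thiamine genes (42.9% and 23.8%) did not lie far from these. Their counts are therefore not read as results about the lists.

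More mating genes of a cells were higher in *urm1 tcd1* than in *elp3 tcd1*, but not all went this way. Of 25 tested outside chromosome XI, 14 (56%) were higher in *urm1 tcd1*, 4 (16%) were higher in *elp3 tcd1* and 7 were not called (median -0.30). Log2 fold changes ran from -1.59 to 2.55, so the largest difference of the list was towards *elp3 tcd1*. *STE4* was higher in *elp3 tcd1* by 0.46. The a-cell gene *ASG7* had 83, 79 and 72 counts in *elp3 tcd1* and 54, 39 and 40 in *urm1 tcd1*. *MFA1*, one of the a-factor genes, had 54.0, 62.4 and 57.5 CPM against 156, 184 and 158 and 87.9 ± 8.32 (SD, n = 4) in WT. *BAR1*, the protease that degrades alpha-factor, had 61.7 to 63.0 against 137 to 156, both below the WT mean of 264. *AGA2*, the a-agglutinin subunit, had 34.3, 27.2 and 31.5 against 86.9, 99.9 and 94.9. The alpha-factor gene *MF(ALPHA)1*, which belongs to the other mating type, had 28, 19 and 17 counts in *elp3 tcd1*, 2, 2 and 4 in *urm1 tcd1* and 1 to 6 in WT. The alpha-cell receptor gene *STE3*, on chromosome XI, had 65, 58 and 63 counts in *elp3 tcd1*, 28, 27 and 44 in *urm1 tcd1* and 21 to 38 in WT. *MF(ALPHA)2* had 3, 2 and 0 counts in *elp3 tcd1*, 0 in each *urm1 tcd1* library and 0 to 4 in WT, and *MATALPHA1* had 0 in all of them. For *MF(ALPHA)1* and *STE3* the groups did not overlap. The part of these genes in the difference of the other mating genes was not tested.

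Outside chromosome XI, genes of the modification pathways differed by at most 0.62 on the log2 scale, the deleted genes left aside. Of 12 tested genes of Elongator and its partners outside chromosome XI, *ELP3* left aside, 1 (*SAP185*) was higher in *elp3 tcd1* and 5 (*IKI3*, *HRR25*, *SIT4*, *TRM9* and *TRM112*) were higher in *urm1 tcd1*, with log2 fold changes between -0.47 and 0.24. The shares were 8.33% and 41.7%, beside 33% and 26.5% of all tested genes. *TRM9* and *TRM112* encode the methyltransferase that completes mcm5, and they had -0.44 and -0.47. Of 6 genes of the Urm1 pathway beside *URM1*, *UBA4*, which activates Urm1, was higher in *elp3 tcd1* by 0.25 and *AHP1*, a peroxiredoxin to which Urm1 can be joined, by 0.62. The sulfur transferase genes *NCS2*, *NCS6* and *NFS1* were not called. Of 5 genes of t6A and ct6A synthesis outside chromosome XI, *QRI7* was higher in *urm1 tcd1* (log2 fold change -0.41) and 4 were not called. *TCD2*, the second gene of ct6A formation, lies on chromosome XI and had a log2 fold change of -0.90, near the median of its chromosome (-0.99). *KTI12*, *SAP190*, *KAE1* and *PCC1* of these lists, also on chromosome XI, had -1.16, -1.12, -1.06 and -1.46.

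Genes beside the deleted loci were read as well. *YDC1* and *SEC16*, on either side of *ELP3* at 365 and 621 bases, had log2 fold changes of 0.40 and -0.41. *FAA3* and *NAS2*, beside *URM1* at 1108 and 159 bases, had 0.89 and 0.25, the second with an edgeR adjusted p = 0.046. *LEU5* and *NEM1*, beside *TCD1* at 143 and 437 bases, had 0.38 and 0.41. Over all tested genes outside chromosome XI the absolute log2 fold change had a median of 0.32 and a 90th percentile of 0.99. An effect of the cassettes on these genes was not tested.

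On chromosome XI the comparison changed with the scale. On the common scale 284 of 323 tested genes (87.9%) were higher in *urm1 tcd1* and 10 (3.1%) in *elp3 tcd1*, with a median log2 fold change of -0.99, a 1.99-fold difference. On the scale of chromosome XI, with library sizes taken from its own genes, 98 (30.3%) were higher in *urm1 tcd1* and 103 (31.9%) in *elp3 tcd1*. The sulfur genes of this chromosome stood out on either scale. *MET14*, adenylylsulfate kinase, had 323, 350 and 343 CPM in *elp3 tcd1* and 2575, 2729.7 and 2454 in *urm1 tcd1*, with 635 ± 8.37 (SD, n = 4) in WT, and its log2 fold change was -2.93 on the common scale and -1.91 on that of chromosome XI. *MET1*, which makes the siroheme of sulfite reductase, had 446 to 482 against 2649 to 2760.1 CPM and -1.53 on its chromosome's scale. *SRY1*, which degrades 3-hydroxyaspartate, and *PTR2*, a peptide transporter, had -1.55 and -1.38 on that scale. In the other direction *APE1*, a vacuolar aminopeptidase, had 401, 423 and 387 CPM against 215, 230 and 200 even on the common scale, with 1.93 on that of its chromosome. *MSA2*, an activator of G1 genes, had 1.83, *SPC42*, a spindle pole body component, 1.76 and *ECM4*, a glutathione transferase, 1.76. The nitrogen genes *GAP1*, the general amino acid permease, and *DAL80*, a GATA repressor, had -0.63 and -1.01 on this scale, and the glycolytic *FBA1* (aldolase) -0.53. *SRP21*, a subunit of the signal recognition particle, had -1.43 on the common scale and -0.40 on its own.

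Whether the difference between *elp3* and *urm1* depended on the second deletion was tested with the *deg1* strains, in which *TCD1* is intact. The difference between *elp3 tcd1* and *urm1 tcd1* differed from that between *elp3 deg1* and *urm1 deg1* for 3897 of the 5696 genes (68.4%). The threshold was an edgeR adjusted p of 0.01 for the interaction, and chromosome XI, raised in *urm1 tcd1*, is included. Among genes called outside chromosome XI the share was 81.7%, and among those not called there 46.4%. Of the 24 genes with the largest differences, 23 passed this test. The interaction contains the contrast that picked the called genes and these 24, so both results are in part set by that choice. *ADH2* was 3.93 higher in *elp3 tcd1* than in *urm1 tcd1* but had -2.10 (standard error 0.11) in the *deg1* strains. *MLS1* and *DAK2* likewise had -2.33 and -1.85 there, *GRE1* -1.22 and *HSP12* -0.47, opposite to their sign beside *tcd1*. *SUL1* had 0.09 (standard error 0.05, edgeR adjusted p = 0.092) and *MET3* -0.02, where the difference beside *tcd1* was -3.29 and -1.45. *ADH5* had 1.24 and *PDC1* 1.08, both opposite in sign. *DSE2* was the exception of the 24, with -2.14 beside *deg1* and -1.95 beside *tcd1* (edgeR adjusted p of the interaction = 0.022), and *CTS1* had -1.76 in both (edgeR adjusted p of the interaction = 0.9). The list medians in the *deg1* strains were 0.09 for sulfur genes, -0.06 for cytosolic ribosomal proteins, 0.01 for general stress genes, 0.88 for Gcn4 genes, 0.83 for glycolysis and -2.72 for mating genes. In the *deg1* strains *STE2* had -3.50 and *BAR1* -3.92, beside -0.88 and -1.21 in the *tcd1* strains. Because the *elp3 tcd1* libraries keep reads of *TCD1*, and chromosome XI is raised in *urm1 tcd1*, these cannot be told apart from the second deletion in this test. The *deg1* strains differ from each other too, in mating genes as given above, in *ACT1* (0.75) and in the marker listed at *DEG1*. A difference of this kind between the strains cannot be told apart from the second deletion either. Actin, *ACT1*, a common reference gene, had 1371, 1339 and 1347 CPM in *elp3 tcd1* and 1363, 1304 and 1361 in *urm1 tcd1* (log2 fold change 0.01, edgeR adjusted p = 0.83), and 0.75 in the *deg1* strains.

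**Figure D5:**
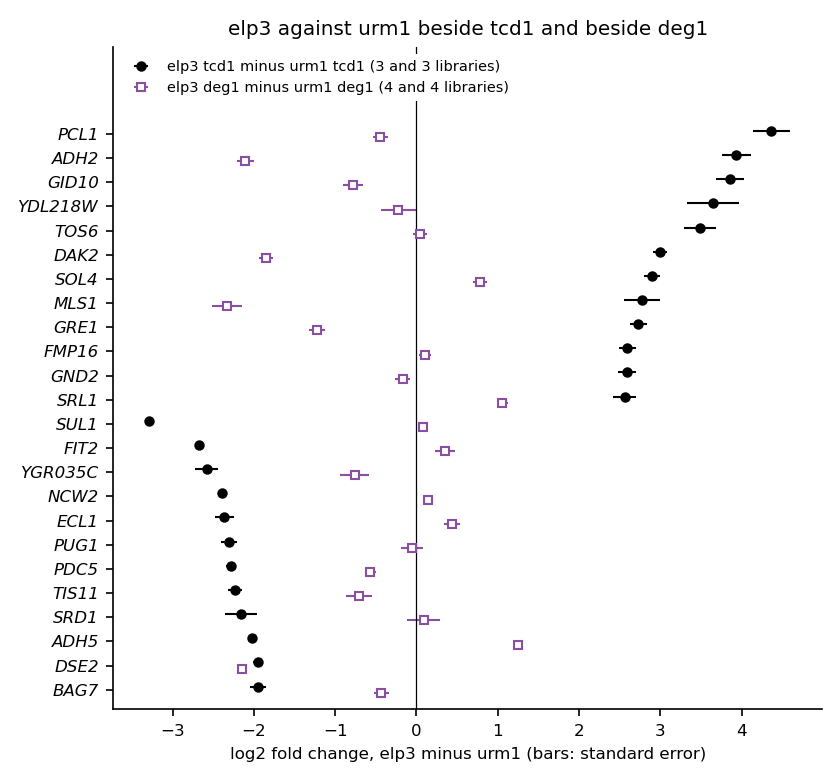
Log2 fold change of *elp3* over *urm1* beside *tcd1* (filled circles) and beside *deg1* (open squares) for the 24 genes with the largest differences beside *tcd1*, with standard errors. Most squares lie near 0 or on the other side of it, and *DSE2* has both values near -2. The genes were picked by the filled circles, so smaller values beside *deg1* follow in part from that choice.

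The codon content of the coding sequences was described because the lysine tRNA shown above reads AAA. AAA made up a median of 4.26% of the codons of genes higher in *elp3 tcd1* (1744 coding sequences outside chromosome XI), 3.60% in genes higher in *urm1 tcd1* (1398) and 4.35% in genes not called (2052). For AAG the medians were 2.98%, 3.33% and 2.93%. AAA was 59.5%, 52.8% and 60.0% of the lysine codons in the same order, and without the cytosolic ribosomal protein genes the middle value was 54.5%. Genes higher in *urm1 tcd1* thus stood apart from both other groups, which were alike. They are also the more abundant genes, as given above, and the part of the level in this was not tested. CAA had medians of 2.48%, 2.59% and 2.58% and GAA of 4.36%, 4.42% and 4.38%. Across 5194 genes the log2 fold change correlated with the share of AAA with a Pearson r of 0.09 and a Spearman coefficient of 0.13. These are values across genes of the same 6 libraries, and genes are not independent replicates.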

How the data were processed

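Polyadenylated RNA was sequenced from a stranded library kit. According to the study's methods and notes, the authors aligned reads with STAR 2.5.1b to the R64-1-1 yeast genome and deposited raw counts of reads per gene, with no normalization. The processing notes name HTSeq 1.4.6-p2 as the counter, while the headers of the deposited count tables name featureCounts v1.4.6-p2, run on the reverse strand. Of 7126 genes per table, 6048 were matched to the RefSeq annotation of R64, 6036 of them at the same coordinates.

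The 6 libraries were compared with edgeR 4.0.16 (R 4.3.3). Genes were kept by filterByExpr with a minimum count of 10, scaled by TMM, tested with the quasi-likelihood test and adjusted by Benjamini and Hochberg over all 5696 genes. A gene was called at an adjusted p of 0.01. Positive log2 fold changes are higher in *elp3 tcd1*. CPM values are TMM-scaled over 12 libraries. Levels against WT came from a fit of 10 libraries and the interaction from 1 of 14. DESeq2 1.42.0, other scalings, filters, thresholds, a replicate block, left-out libraries and both replicate 4 libraries were tried as alternatives. The procedure was tested on simulated data.

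Members and gene lists were chosen with earlier results of these data known. The genes named first were the deleted genes, those the study measured apart (*HSP12*, *HXK1*, *MEP2*, *SRP21* and *ACT1*), the genes beside the deletions, the 12 largest called differences in each direction outside chromosome XI (4 on it) without overlap and with at least 50 counts in each library of the higher group, and the largest by the same rule in each list. Other list members named were chosen after their values were seen. Some members of the lists are not reported here.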

Additional observations from a re-analysis of the deposited data

Results flagged for a closer look

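Replicate 4 of both *tcd1* labels stood apart from replicates 1 to 3. The library labelled *elp3 tcd1* replicate 4 had 345 counts of *ELP3*, 0 of *URM1* and a chromosome XI median 0.96 above WT on the log2 scale. The library labelled *urm1 tcd1* replicate 4 had 5 counts of *ELP3*, 174 of *URM1*, 154 of *TCD1* and a chromosome XI median of 0.0146 from WT. Among the 4 WT libraries, replicate 1 stood apart in its chromosome XI median (-0.0085) and in *HXT2* (848 CPM), replicate 3 in *MSA2* (39.0 CPM) and replicate 4 in *RPL22B* (191 CPM). Chance sets about 1 in 20 groups apart in this way.

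The difference between *elp3* and *urm1* differed between the *tcd1* and the *deg1* strains, by the interaction in edgeR. Of 5805 genes tested in that fit, chromosome XI included, 1986 had a larger and 1947 a smaller value beside *tcd1*. The genes given next, up to *BAG7*, were picked by the *tcd1* contrast that the interaction contains. For genes higher in *elp3 tcd1* the interaction was 4.81 for *PCL1*, 6.04 for *ADH2*, 4.63 for *GID10*, 3.87 for *YDL218W*, 3.45 for *TOS6*, 4.84 for *DAK2*, 2.11 for *SOL4*, 5.10 for *MLS1*, 3.95 for *GRE1*, 2.49 for *FMP16*, 2.76 for *GND2* and 1.505 for *SRL1*, on the log2 scale. For genes higher in *urm1 tcd1* it was -3.38 for *SUL1*, -3.02 for *FIT2*, -1.82 for *YGR035C*, -2.54 for *NCW2*, -2.80 for *ECL1*, -2.25 for *PUG1*, -1.72 for *PDC5*, -1.52 for *TIS11*, -2.25 for *SRD1*, -3.27 for *ADH5* and -1.515 for *BAG7*. Among further named genes, *HSP12* had 2.78, *HXK1* 1.63, *MEP2* -0.81 and *ACT1* -0.75. *SRP21*, on the raised chromosome XI, had -1.57.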

How the results depend on the processing

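With both replicate 4 libraries included, edgeR called 0 genes in either direction, outside chromosome XI and on it. A size threshold of 1 on the absolute log2 scale left 377 and 133 genes outside chromosome XI and 1 and 161 on it. It left 723 and 625 interactions among 5805 genes. On the scale of chromosome XI, 103 and 98 of its genes were called. Outside chromosome XI, DESeq2 called 1299 genes higher in *elp3 tcd1* and 1282 higher in *urm1 tcd1*, and 2552 of the 3200 edgeR calls were also called by it in the same direction. Leaving out 1 library at a time gave 1568 to 1701 and 1321 to 1400 genes. Of 110 named genes, 6 were no longer called by DESeq2, 4 with upper quartile scaling, 53 with the fold threshold and 108 with replicate 4. The replicate numbers do not show that samples are paired, since deviations of same-numbered samples correlated at 0.13, 0.13 and 0.03, although every sample correlated best with its own number. With the replicate block, edgeR called 1817 and 1470 genes outside chromosome XI and 11 and 289 on it, and it changed the call of none of the named genes. Low counts limit genes such as *YDL218W*, with 2 to 4 counts per *urm1 tcd1* library.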
